A study of Mus musculus with 12 samples.

Results

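The genes described here build the nuclear pore or carry cargo through it: protein-coding genes whose symbols mark them as nucleoporins (Nup and a number, Ndc1, Tpr), importins (Kpna, Kpnb, Ipo), transportins (Tnpo), exportins (Xpo), Ran or numbered Ran-binding proteins. They were picked by symbol alone, and 51 of the 14852 genes in the deposited expression table, 11830 of them protein-coding, met the rule. They held 183 of the 19049 peaks in the deposited table of N4-acetylcytidine (ac4C) peaks. The cells were ID8, a mouse ovarian cancer line of surface epithelial origin, kept without drug (control) or given cisplatin, a platinum compound that crosslinks DNA. No other agent and no genetic change is named in the labels, and no source used here states the dose or time of cisplatin. The study asked how ac4C, an acetylated base placed in RNA by the enzyme NAT10, takes part in the response to cisplatin. RNA was fragmented, part of it was kept as input, and part was enriched with an anti-ac4C antibody (IP). The 12 libraries form 4 groups of 3: control input, control IP, cisplatin input and cisplatin IP.

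Nuclear pores are large assemblies set into the nuclear envelope. Scaffold rings (the Y complex and the inner ring) hold a central channel of flexible proteins, with filaments on the cytoplasmic side and a basket on the nuclear side. Importins bind cargo in the cytoplasm and let go of it when the small GTPase Ran, loaded with GTP, binds them in the nucleus, whereas exportins bind cargo together with Ran-GTP and release it outside, where GTP is hydrolysed.

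The 6 input libraries held 20134902 to 29687163 fragments in the listed genes, recovered from the steps of the FPKM values (fragments per kilobase of gene, with a scale for each library). FPKM values over all genes summed to 258546 to 259158 in control and 275195 to 278678 in cisplatin libraries. The main fit did not even out this difference, and a common FPKM sum was used as an alternative. Replicates correlated at 0.989 to 0.996 over genes on the log2 scale and libraries of different treatment at 0.833 to 0.847. Of 9 markers of surface epithelium and mesothelium, 7 were at 1 FPKM or more in every input library, led by Krt8, Krt18 and Krt19, and their summed level was 2096 to 2128 FPKM in control and 2954 to 3302 in cisplatin libraries. The abundant keratins carried that sum, while Wt1 had means of 45.1 and 12.4 FPKM in control and cisplatin libraries, Upk3b 81.6 and 61.1, and the low Lrrn4 1.35 and 0.13; Krt7 was low in both. Of 6 leukocyte markers, Cd68 and Cd79a were in the table, with a sum of 2.22 to 2.57 FPKM in control and 7.53 to 9.92 in cisplatin libraries; Cd79a had a value of 0 in each control library, and the table lacked Ptprc. The fibroblast markers Pdgfra and Dcn summed to 18.9 to 19.8 and 11.1 to 12.7 FPKM, and the table held none of the endothelial markers Pecam1, Cdh5 and Kdr. These marker sums moved with treatment beside all the changes below, and their part in those changes was not tested. Whether the replicates grew as separate cultures is not stated, and p-values here measure only the spread between these samples, which may be technical. In bulk RNA, fewer cells of a type and less RNA per cell cannot be told apart.

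More of the transport genes were higher than lower after cisplatin. A change is the difference of mean log2(FPKM + 1), cisplatin minus control, tested with limma over all 11449 genes that reached 1 FPKM in 3 or more input libraries, and called at a Benjamini-Hochberg adjusted p of 0.05. This scale understates the change of genes near 1 FPKM. Of the 50 members tested, 32 (64%) rose, 9 (18%) fell and 9 passed in neither direction. Over all genes tested, 81.3% were called, 40.1% as higher and 41.1% as lower, so that a call as such is common in these data. The counts by class below are to be read beside these shares, and no class was tested against them. The median change was 0.25 for the members and -0.003 for all genes tested. In 42 members (84%) the 3 cisplatin values did not overlap the 3 control values, against 84.2% of all genes tested. On this scale, changes of at least 1 upwards were found in 5 members, and 0 members fell by as much. Among all genes tested these shares were 10.8% and 13.1%. The 5 were Tnpo2, Nup160, Ipo4, Nup93 and Xpo5. Both counts depend on the pseudocount of 1. With a pseudocount of 0.1, Nup37 stood at -2.00, and Nup35 and Nup210l at 1.28 and 1.16. With a fold of at least 1.5 on the log2(FPKM + 1) scale required beside the adjusted p, 13 members were higher and 2 lower. Among all genes tested 21.4% and 23.3% were. By the authors' deposited table, an adjusted p of 0.05 was passed by 42 members (77.8% of all its genes did), 33 higher and 9 lower, and 41 of them shared call and direction with the limma fit.

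**Figure D1:**
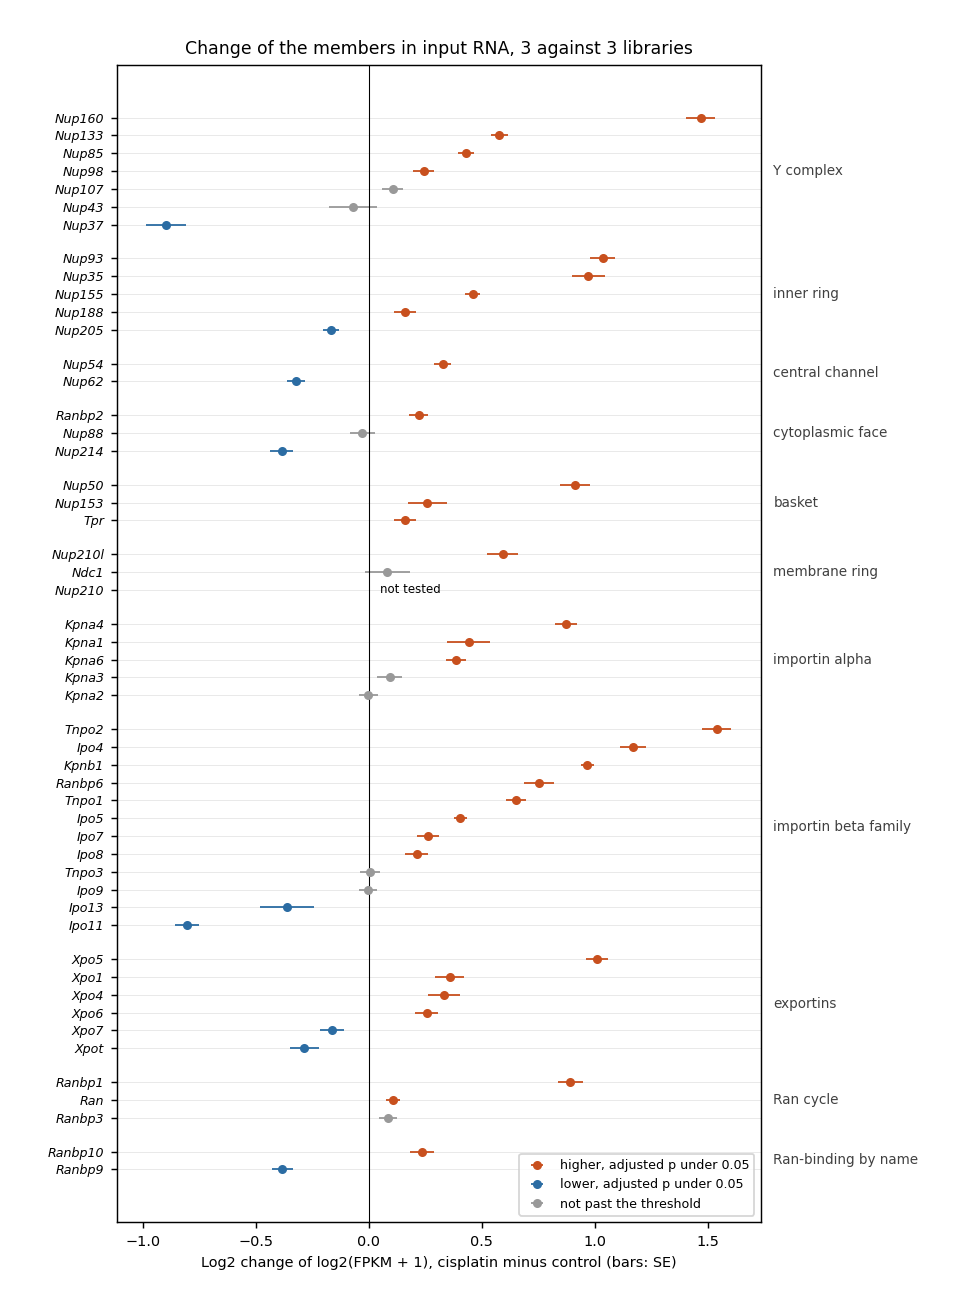
Log2 change of each member in input RNA (horizontal axis, cisplatin minus control, log2(FPKM + 1) scale, bars ± SE, 3 against 3 libraries), grouped by role. The 32 members called higher outnumber the 9 called lower, with Tnpo2 at 1.54 and Nup37 at -0.90 as the ends of the range. Ran and Tpr turn sign under quantile normalization.

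RefSeq promoter windows are given for the 5 members with a rise of at least 1 on the log2(FPKM + 1) scale, picked by the size of the change alone. Among all genes tested 10.8% rose as much, and whether the 5 share any regulation was not tested. The windows hold 250 bases before the start set for each RefSeq promoter, 5′ to 3′ on the gene's strand, on GRCm38.p6, the assembly behind mm10. That start can differ from the start of the gene's RefSeq span. The spans of Tnpo2 (from 85036873) and Ipo4 (from 55635868, minus strand) begin inside their windows, so part of each window lies within the gene. Capitals mark matches, on either strand, to the E-box CACGTG, the CCAAT box (ATTGG on the other strand) and the NRF1 motif (GCGC, any 2 bases, GCGC), and no match overlaps another motif in these windows. The window of Tnpo2 lies at chr8:85036643-85036892 on the plus strand, that of Nup160 at chr2:90676965-90677214 on the plus strand, that of Ipo4 at chr14:55635685-55635934 on the minus strand, that of Nup93 at chr8:94214314-94214563 on the plus strand, and that of Xpo5 at chr17:46202561-46202810 on the plus strand.
Tnpo2: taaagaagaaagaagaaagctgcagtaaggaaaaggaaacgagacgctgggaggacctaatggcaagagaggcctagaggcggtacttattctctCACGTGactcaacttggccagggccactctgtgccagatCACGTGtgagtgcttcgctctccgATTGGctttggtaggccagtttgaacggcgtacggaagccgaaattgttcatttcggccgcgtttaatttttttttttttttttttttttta
Nup160: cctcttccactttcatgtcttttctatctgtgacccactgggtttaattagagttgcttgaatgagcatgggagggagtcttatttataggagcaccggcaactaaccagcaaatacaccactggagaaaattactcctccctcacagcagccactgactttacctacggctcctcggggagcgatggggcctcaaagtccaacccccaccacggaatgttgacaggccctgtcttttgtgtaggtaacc
Ipo4: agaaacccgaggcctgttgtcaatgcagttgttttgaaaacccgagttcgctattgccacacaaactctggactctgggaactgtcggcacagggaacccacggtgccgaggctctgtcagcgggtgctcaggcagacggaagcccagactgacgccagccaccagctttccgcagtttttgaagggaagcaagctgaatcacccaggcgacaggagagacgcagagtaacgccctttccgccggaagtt
Nup93: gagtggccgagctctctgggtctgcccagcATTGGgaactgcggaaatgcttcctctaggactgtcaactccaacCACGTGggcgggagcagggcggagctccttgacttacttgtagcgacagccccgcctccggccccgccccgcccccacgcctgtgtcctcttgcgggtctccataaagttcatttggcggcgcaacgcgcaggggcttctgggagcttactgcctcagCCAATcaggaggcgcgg
Xpo5: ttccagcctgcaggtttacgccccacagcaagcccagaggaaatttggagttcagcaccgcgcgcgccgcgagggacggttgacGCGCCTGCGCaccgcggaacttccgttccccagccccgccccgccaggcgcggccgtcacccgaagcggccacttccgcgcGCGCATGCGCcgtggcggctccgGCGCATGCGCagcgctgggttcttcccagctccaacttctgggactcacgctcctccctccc

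Tnpo2 held E-boxes that begin 155 and 116 bases before the end of its window and a CCAAT box at 92 bases. The other positions are counted in the same way. Nup93 held 1 E-box, at 175 bases, between CCAAT boxes at 220 and 17 bases. Xpo5 held neither of these and 3 NRF1 motifs, at 166, 85 and 62 bases. The windows of Nup160 and Ipo4 held none of the 3 motifs, which says only that these letters are not there. RefSeq windows were matched for 40 of the 51 members. An E-box stood in 8 of the 40 (20%) and in 6.64% of the 17492 windows of protein-coding genes, expressed here or not. It stood in 7 of the 25 matched members that rose (Ipo7, Nup188, Nup54, Nup93, Ran, Ranbp2 and Tnpo2), in 1 of 8 that fell (Xpot) and in 0 of 6 without a call. Under quantile normalization Ipo7, Nup188 and Ranbp2 lost their calls and Ran was called lower, whereas Nup54, Nup93, Tnpo2 and Xpot kept theirs. CCAAT boxes were in 18 of the 40 (45%) against 36.3% of all windows, and the NRF1 motif in 6 (15%) against 6.93%. By call, CCAAT boxes were in 48% of the matched members that rose, 50% of those that fell and 33.3% of those without a call, and the NRF1 motif in 12%, 12.5% and 33.3%. These shares are descriptions, and a match is not evidence of binding.

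The Ran cycle supplies direction to transport. Ranbp1, which helps strip Ran-GTP from transport receptors in the cytoplasm, read 115, 111 and 123 FPKM in the control libraries and 203, 219 and 229 in the cisplatin libraries. All 3 cisplatin values lay above all 3 control values, and the mean was 1.86-fold higher (log2 change 0.89, SE 0.06, adjusted p = 4.1e-06 by limma). Ran itself, the GTPase, was among the most abundant members, at 247, 247 and 246 FPKM in control and 271, 271 and 256 in cisplatin libraries. Its groups did not overlap, but the step was small (log2 change 0.11, SE 0.03, limma adjusted p = 0.0184). That call was lost without control replicate 1, 2 or 3 (limma adjusted p 0.0591, 0.0621 and 0.0657) and without cisplatin replicate 1 (0.0545), as well as with libraries scaled to a common FPKM sum (log2 change 0.01). With quantile normalization Ran was called lower instead (-0.08, limma adjusted p = 0.0395). Near-identical copies of Ran exist in the mouse genome, so the share of its reads is uncertain. Ranbp3, a cofactor of the exportin Xpo1, read 23.0, 23.5 and 24.3 FPKM in control and 25.0, 26.0 and 24.3 in cisplatin libraries. Its highest control and lowest cisplatin value were 24.3 on both sides, and it did not pass (log2 change 0.08, limma adjusted p = 0.0816), though it did without cisplatin replicate 3 (0.0376).

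Ranbp9 and Ranbp10 carry the name through sequence and early binding studies and serve as subunits of a ubiquitin ligase complex. Ranbp9 read 10.2, 10.2 and 10.8 FPKM in control and 7.44, 7.92 and 7.85 in cisplatin libraries, with no overlap (log2 change -0.38, SE 0.05, limma adjusted p = 0.000159). Ranbp10 moved the other way, from 5.16, 5.43 and 5.20 to 6.53, 6.56 and 6.03 FPKM (log2 change 0.23, limma adjusted p = 0.00428). The pair thus differed in direction, each with separate groups.

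Receptors of the importin beta family, which ferry cargo in through the channel, were mostly higher: 8 of the 12 rose, 2 fell and 2 passed in neither direction, with a median change of 0.33. The share that rose, 66.7%, was near the 64% of all members tested. Kpnb1, the importin beta that works with importin alpha on classical nuclear localisation signals, stood out by its level. It read 109, 106 and 106 FPKM in control and 205, 209 and 215 in cisplatin libraries. The mean was 1.96-fold higher, a log2 change of 0.97 with an SE of 0.03 (limma adjusted p = 2.58e-07), the smallest adjusted p of the members. Tnpo2, a transportin that imports RNA-binding proteins, read 7.40, 7.95 and 8.14 FPKM in control and 24.3, 26.8 and 22.9 in cisplatin libraries. Its mean was 3.15-fold higher (log2 change 1.54, SE 0.07, limma adjusted p = 7.46e-07), the largest log2 change with a pseudocount of 1, whereas with 0.1 that of Nup160 was larger (1.73 against 1.64). Ipo4, which imports histones and ribosomal proteins, read 4.02, 4.47 and 4.03 FPKM in control and 10.5, 11.1 and 10.3 in cisplatin libraries. Its mean was 2.55-fold higher (log2 change 1.17, SE 0.06, limma adjusted p = 1.32e-06), with a wide gap between the groups.

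Among the other receptors that rose, Ranbp6, a close relative of Ipo5, went from a mean of 2.14 to 4.28 FPKM (log2 change 0.75, SE 0.07). Tnpo1, the transportin of hnRNP proteins and close relative of Tnpo2, went from 10.4 to 16.9 FPKM (0.65, SE 0.04). Ipo5, an importer of ribosomal proteins and histones, went from 47.8 to 63.6 FPKM (0.40, SE 0.03). Changes were smaller for the related receptors Ipo7, from 40.5 to 48.9 FPKM (0.26), and Ipo8, from 6.34 to 7.49 FPKM (0.21). The call of Ipo7 was lost with quantile normalization (limma adjusted p = 0.0961) and that of Ipo8 with a common FPKM sum (0.0595). Ipo11 fell furthest in the family, from 6.51, 6.06 and 6.35 to 3.26, 3.11 and 3.17 FPKM, 1.98-fold lower (log2 change -0.81, SE 0.05, limma adjusted p = 5.08e-06). Ipo13, which works in both directions, read 9.11, 8.78 and 9.62 FPKM in control and 7.47, 8.03 and 5.46 in cisplatin libraries (log2 change -0.36, SE 0.12, limma adjusted p = 0.0256). The cisplatin libraries were spread widely, and its call was lost without control replicate 1 (0.0636) or 3 (0.083). Tnpo3, the importer of SR splicing factors, had means of 8.81 and 8.83 FPKM (log2 change 0.003, limma adjusted p = 0.957). Ipo9, an importer of histones and actin, read 22.1, 22.9 and 22.7 FPKM in control and 23.2, 22.5 and 21.7 in cisplatin libraries, with overlapping groups (log2 change -0.005, limma adjusted p = 0.911). With a common FPKM sum Ipo9 was called lower (-0.10, limma adjusted p = 0.0448).

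Importin alpha proteins bind the localisation signal and hand the cargo to Kpnb1. Of the 5 in the table, 3 rose and 2 did not pass. Kpna4 read 7.09, 7.26 and 7.39 FPKM in control and 13.9, 13.6 and 14.9 in cisplatin libraries, 1.95-fold higher (log2 change 0.87, SE 0.05, limma adjusted p = 2.5e-06). Kpna6 went from 9.18, 9.22 and 9.04 to 12.9, 11.9 and 12.1 FPKM (log2 change 0.39, SE 0.04, limma adjusted p = 0.000107). Kpna1 read 15.9, 18.8 and 19.2 FPKM in control and 22.6, 23.9 and 27.9 in cisplatin libraries (log2 change 0.44, SE 0.10, limma adjusted p = 0.00347). In each of these 3 genes all cisplatin values were the higher ones. Kpna2, the most abundant importin alpha here, read 59.4, 56.8 and 56.2 FPKM in control and 54.9, 57.3 and 59.9 in cisplatin libraries. Its groups overlapped almost fully (log2 change -0.003, SE 0.04, limma adjusted p = 0.951), and quantile normalization called it lower (-0.16, limma adjusted p = 0.00762). Kpna3 read 19.8, 19.6 and 19.2 FPKM in control and 20.7, 19.5 and 22.6 in cisplatin libraries, also with overlap (log2 change 0.09, limma adjusted p = 0.166). It passed without cisplatin replicate 2 (0.14, limma adjusted p = 0.0331).

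Exportins carry cargo out, each with its own classes. Of 6 in the table, 4 rose and 2 fell. Xpo5, the exporter of precursor miRNAs, read 20.1, 21.1 and 20.3 FPKM in control and 45.0, 39.7 and 42.3 in cisplatin libraries. Its mean was 2.06-fold higher with separate groups (log2 change 1.01, SE 0.05, limma adjusted p = 1.52e-06). Xpo1, the main exporter of proteins with leucine-rich export signals, read 17.5, 18.3 and 19.0 FPKM in control and 22.6, 22.4 and 26.1 in cisplatin libraries (log2 change 0.36, SE 0.07, limma adjusted p = 0.0015). Xpo6, the exporter of actin, read 3.28, 3.37 and 3.30 FPKM in control and 4.06, 4.12 and 4.27 in cisplatin libraries (log2 change 0.26, SE 0.05, limma adjusted p = 0.00232). The low gene Xpo4 went from 2.11 to 2.92 FPKM (0.33, SE 0.07). Xpot, the tRNA exporter, went the other way, from a mean of 25.4 to 20.7 FPKM (-0.29, SE 0.06, limma adjusted p = 0.00447). Xpo7 had means of 3.37 and 2.90 FPKM (-0.16, limma adjusted p = 0.0239). The call of Xpo7 was lost without control replicate 1 or 2 (0.0839 and 0.0663), without cisplatin replicate 1 (0.0605) and with quantile normalization (0.263).

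The make-up of each receptor family by summed FPKM moved with these changes. Kpnb1 made up 39.1% ± 0.36 (SD, n = 3) of the importin beta family in control and 49.0% ± 0.60 in cisplatin libraries, while the family's sum went from 273 ± 3.08 to 427 ± 4.39 FPKM. Tnpo2 went from 2.87% to 5.78% of that sum and Ipo11 from 2.31% to 0.74%. Kpna2 made up 51.6% ± 1.5 of importin alpha RNA in control and 44.3% ± 0.97 in cisplatin libraries, while its own level overlapped between the groups. Among exportins, Xpot held the largest share in control libraries, 34.8% ± 0.73, and 21.4% ± 2.39 in cisplatin libraries. Xpo5 went from 28.1% ± 0.71 to 43.8% ± 1.95, the largest share in all 3 cisplatin libraries. Sums over all 51 members were 1269 ± 10.8 FPKM in control and 1668 ± 28.8 in cisplatin libraries. The sums given here were not corrected for the FPKM sum over all genes, which was also higher in cisplatin libraries. These shares are descriptions with no test, and a share can move without a change of its own gene.

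**Figure D2:**
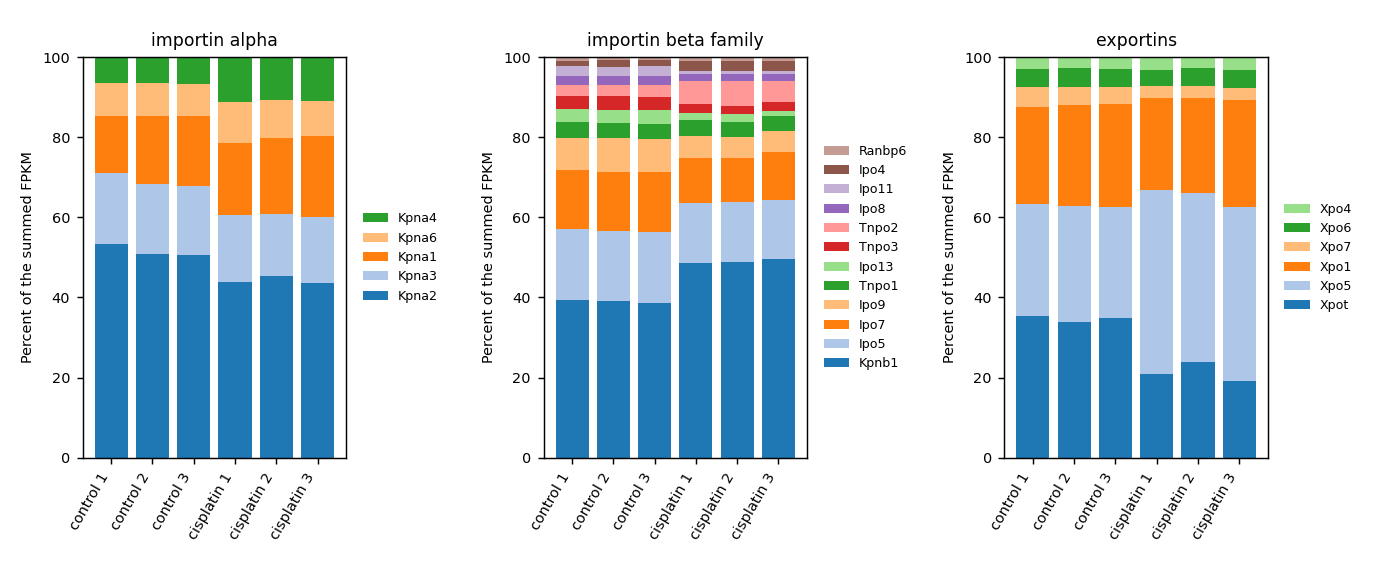
Percent of the summed FPKM of importin alpha, the importin beta family and the exportins taken by each gene (vertical axis) in each of the 6 input libraries. Kpnb1 takes 39.1% of its family in control and 49.0% in cisplatin libraries on average, and among the exportins Xpot has the largest share in control and Xpo5 in cisplatin libraries.

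Scaffold genes of the pore moved in both directions. In the Y complex, the outer ring, 4 of 7 rose, 1 fell and 2 passed in neither direction. Nup160 read 2.75, 2.76 and 2.77 FPKM in control and 8.88, 9.12 and 10.3 in cisplatin libraries, 3.41-fold higher (log2 change 1.47, SE 0.06, limma adjusted p = 7.94e-07). It was the largest rise among the pore subunits tested, and the control values hardly differed. Nup133, a partner in the stem of the Y, read 17.3, 16.6 and 17.3 FPKM in control and 26.8, 25.0 and 26.1 in cisplatin libraries (log2 change 0.58, SE 0.04, limma adjusted p = 6.42e-06). Nup85, in the short arm, went from 23.2, 24.1 and 23.9 to 33.0, 32.5 and 31.3 FPKM (log2 change 0.43, SE 0.04, limma adjusted p = 1.94e-05). Nup98, whose protein is cut into Nup98 and the Y-complex subunit Nup96, went from a mean of 10.8 to 12.9 FPKM (0.24, SE 0.05, limma adjusted p = 0.00193). Nup107 read 30.5, 29.8 and 31.2 FPKM in control and 34.7, 32.8 and 31.1 in cisplatin libraries. Its groups overlapped by 1 value, and it did not pass (log2 change 0.11, limma adjusted p = 0.0678), though it did without cisplatin replicate 3 (0.0132). Nup43, at means of 6.35 and 6.03 FPKM, did not pass either (-0.07, limma adjusted p = 0.551). Nup37 fell from 1.29, 1.33 and 1.55 to 0.42, 0.26 and 0.18 FPKM, 4.89-fold lower by means (log2 change -0.90, SE 0.09, limma adjusted p = 4.5e-05). Its values rest on 310 fragments in the control and 73 in the cisplatin libraries, with 13 in the lowest.

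Inner-ring genes all passed, where 81.3% of all genes tested did: 4 of 5 rose and 1 fell. Nup93, the linker that ties the ring to the channel, read 8.40, 8.17 and 8.14 FPKM in control and 17.6, 19.3 and 16.9 in cisplatin libraries, 2.18-fold higher (log2 change 1.03, SE 0.05, limma adjusted p = 1.8e-06). Nup35, a membrane-binding subunit, went from 1.72, 1.87 and 1.59 to 4.34, 3.99 and 4.72 FPKM (log2 change 0.97, SE 0.07, limma adjusted p = 1.15e-05). Nup155, another membrane-binding subunit, went from 28.1, 27.0 and 26.9 to 37.3, 38.0 and 38.6 FPKM (log2 change 0.46, SE 0.03, limma adjusted p = 9.45e-06). The large scaffold subunits Nup188 and Nup205, which bind Nup93, differed in direction. Nup188 had means of 14.4 and 16.2 FPKM (0.16, SE 0.05, limma adjusted p = 0.0165), and Nup205 of 18.9 and 16.7 FPKM (-0.17, SE 0.03, limma adjusted p = 0.00239). For Nup188 the call was lost without control replicate 2 or 3 (0.0561 and 0.0635), with a common FPKM sum (0.242) and with quantile normalization (0.0751). Nup205 kept its call without each library in turn.

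The channel, filaments, basket and membrane ring were mixed. In the central channel, Nup54 read 11.7, 11.2 and 11.8 FPKM in control and 14.9, 14.5 and 14.9 in cisplatin libraries (log2 change 0.33, limma adjusted p = 0.000137). Its partner Nup62 went down, from 26.7, 26.1 and 26.6 to 21.0, 21.9 and 19.96 FPKM (-0.32, limma adjusted p = 0.000219). On the cytoplasmic face, Ranbp2, the giant filament protein with SUMO ligase activity, read 32.0, 32.0 and 33.1 FPKM in control and 37.0, 36.7 and 40.0 in cisplatin libraries (0.22, limma adjusted p = 0.0019), a call lost with quantile normalization (0.108). Nup214, which docks exportin complexes, fell from 7.76, 7.85 and 8.09 to 5.88, 6.05 and 5.50 FPKM (-0.39, limma adjusted p = 0.000243). Its partner Nup88 read 15.8, 15.2 and 15.1 FPKM in control and 14.4, 14.5 and 16.2 in cisplatin libraries, with overlap (-0.03, limma adjusted p = 0.633).

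All 3 basket genes passed as higher, where 40.1% of all genes tested did, although Tpr turned sign under quantile normalization (-0.10). Nup50, a mobile cofactor of importin alpha, read 15.6, 15.9 and 16.96 FPKM in control and 29.97, 29.4 and 34.6 in cisplatin libraries, 1.94-fold higher (log2 change 0.91, SE 0.07, limma adjusted p = 1.02e-05). Nup153, the basket's anchor, read 7.57, 7.63 and 8.17 FPKM in control and 8.62, 9.04 and 11.01 in cisplatin libraries (0.26, SE 0.09, limma adjusted p = 0.0263). Its call was lost without control replicate 1 or 2 (0.08 and 0.0768) and with a common FPKM sum (0.105). Tpr, the coiled-coil protein that forms the basket's bars, was abundant, at 118, 119 and 119 FPKM in control and 129, 127 and 143 in cisplatin libraries. The groups did not overlap (0.16, SE 0.05, limma adjusted p = 0.0187), but the call was lost without control replicate 1 (0.0588), 2 (0.0546) or 3 (0.05004) and with a common FPKM sum (0.06, limma adjusted p = 0.27).

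Of the membrane ring, Ndc1, which anchors the pore in the envelope, read 9.29, 9.07 and 9.11 FPKM in control and 9.78, 8.27 and 11.4 in cisplatin libraries (0.08, limma adjusted p = 0.466). The cisplatin values lay on both sides of the control values, and without cisplatin replicate 2 it passed (0.19, limma adjusted p = 0.0388). Nup210l, a paralog of Nup210 known from the testis, went from 0.62, 0.44 and 0.54 to 1.24, 1.38 and 1.29 FPKM (0.59, SE 0.07, limma adjusted p = 0.000105), near the lower limit of the values tested. Nup210, whose level rises in differentiating cells, was listed at 0 in all 3 control libraries and at 0.17, 0.15 and 0.16 FPKM in the cisplatin libraries, and was not tested because of the filter. These last values rest on 127 fragments.

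**Figure D3:**
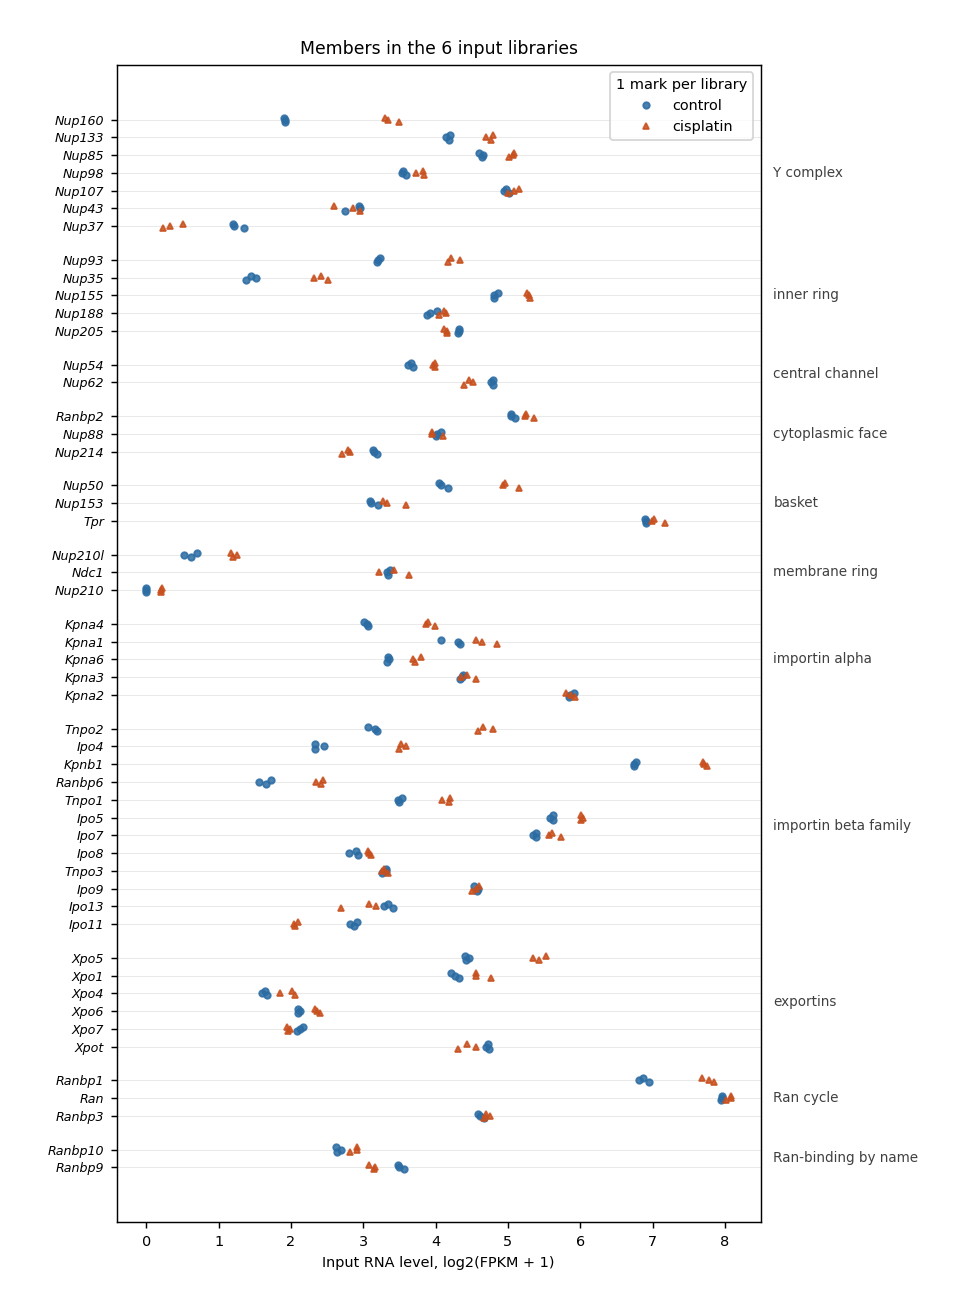
Level of each member as log2(FPKM + 1) (horizontal axis) in the 3 control (circles) and 3 cisplatin (triangles) input libraries, grouped by role. Kpnb1, Tnpo2, Nup160 and Xpo5 show wide gaps between the groups, whereas the marks of Kpna2, Tnpo3, Ipo9 and Nup88 lie on each other.

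Reads of 12 members can be mixed with those of another protein-coding gene, because their RefSeq spans overlap and no source used here states the strand setting of the counting. They were Ipo11, Nup214, Nup43, Nup62, Nup88, Nup98, Ranbp10, Ranbp9, Tnpo1, Tnpo3, Tpr and Xpo7. The overlap was widest for Nup43, 11383 bp shared with Pcmt1 (7.32 FPKM in control and 9.64 in cisplatin), and Nup62, which shares 15467 bp with Il4i1b and 571 bp with Atf5 (46.0 and 36.1 FPKM).

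A wider list of 54 genes, chosen with earlier results of these data known, was set beside the members. It covers further pore subunits and receptors, mRNA export, the SUMO cycle, and the lamina and nuclear envelope, under other symbols. Of the 54, 32 rose, 14 fell and 8 passed in neither direction, with a median change of 0.26. These were 59.3% higher and 25.9% lower, against 40.1% and 41.1% of all genes tested. With 81.3% of all genes called, calls in the parts of the list below are common as such. Of 6 further receptors and Ran regulators, 5 rose and 1 fell. Rangap1, the GTPase activator that makes Ran hydrolyse GTP in the cytoplasm, went from 82.3 ± 1.38 (SD, n = 3) to 166 ± 6.25 FPKM (log2 change 1.00, SE 0.04, limma adjusted p = 4.3e-07). Rangrf, a Ran-binding protein first described as a release factor for guanine nucleotides, went from 0.30 ± 0.14 to 6.68 ± 0.24 FPKM (2.56, SE 0.09, limma adjusted p = 3.69e-07). Of 9 further pore subunits, 5 rose and 3 fell. Pom121, a membrane-anchored subunit, went from 8.43 ± 0.62 to 18.9 ± 1.07 FPKM (1.08, limma adjusted p = 3.05e-06), and the mRNA export factor Gle1 from 8.85 ± 0.07 to 13.8 ± 0.66 FPKM (0.59, limma adjusted p = 1.26e-05).

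Of 16 mRNA export genes, 10 rose and 3 fell. The adaptor Alyref went from 13.7 ± 0.31 to 27.5 ± 0.48 FPKM (0.95, limma adjusted p = 4.56e-07), and Thoc6, of the THO complex, from 8.92 ± 0.43 to 19.4 ± 1.41 FPKM (1.04, limma adjusted p = 3.48e-06). In the group of the SUMO cycle and the basket, 1 of 5 genes rose and 2 fell. The SUMO protease Senp1 fell from 7.61 ± 0.21 to 5.87 ± 0.32 FPKM (-0.33, limma adjusted p = 0.0008). Of 18 genes of the lamina and the envelope, 11 rose and 5 fell. Sun2, a bridge between lamina and cytoskeleton, went from 26.8 ± 0.10 to 50.2 ± 1.41 FPKM (0.88, limma adjusted p = 4.61e-07). Syne2, a nesprin that SUN proteins bind across the envelope, fell from 49.9 ± 0.27 to 22.9 ± 0.40 FPKM (-1.09, limma adjusted p = 1.54e-07).

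The second measurement on these genes was the peak table, in which the authors list regions enriched in the ac4C fraction. All peak values here are the authors', from 1 comparison of all libraries, and values per library were not analysed here. Each peak has a fold enrichment (read here as IP over input), a log2 difference between treatments and the log10 of its adjusted p. The header does not state which treatment is in the numerator of the difference, and the values did not settle it, so differences are given as positive or negative only. Peak positions are outer ends on mm10, counted from 1, and can span introns.

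ac4C peaks were listed for 48 of the 51 members (94.1%), against 63.6% of the protein-coding genes in the expression table. The members were also more abundant than other genes: the median of mean levels was 14.4 FPKM for tested members and 7.62 for tested protein-coding genes, of which 71.2% had a peak. The part of level and length in this difference was not tested. Members with a peak had a median of 4 peaks, and tested protein-coding genes with a peak a median of 2. There were 34 members with 3 or more peaks, 17 of them with 5 or more, 7 with 2 and 7 with 1. Ranbp1, Xpo6 and Nup210l had none, although Ranbp1 stood at 117 FPKM in control libraries. In the authors' deposited table, the single peak of Ran had a fold enrichment of 1.25 and a log2 difference of -0.19, called negative.

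Most peaks of the members lay in coding sequence: 131 of 183 (71.6%), against 54.1% of the peaks of all protein-coding genes. The 3′ UTR held 35 (19.1% against 31.6%), other exons 17 (9.29% against 11.8%) and the 5′ UTR 0 (against 2.43%). Peaks split over several exonic blocks were 120 (65.6% against 46.4%). Y-complex genes had 24 of 26 peaks in coding sequence and 0 in the 3′ UTR, whereas importin alpha genes had 8 of 15 in the 3′ UTR. The median centre of a peak lay at 76.5% of the gene's span from its start, introns included. Median fold enrichment in the authors' deposited table was 6.53 for the members' peaks and 7.05 for all peaks.

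At the authors' adjusted p of 0.05, 105 of the 183 peaks (57.4%) differed between treatments, against 46.2% of all peaks. Calls varied by region, and the members held more peaks in coding sequence. There 62.6% of the members' peaks were called, against 56.0% of all such peaks. In the 3′ UTR these shares were 40% and 36.2%, and in other exons 52.9% and 36.3%. The part of region in the difference was not tested. Of the 105, 88 were positive and 17 negative (36.5% and 9.62% of all peaks were so called), which makes 83.8% of the called peaks positive, against 79.2% over all peaks. Median log2 differences in the authors' deposited table were 2.16 for the members and 1.58 for all peaks. A set of 15 members' peaks stood at exactly 1.00 or 1.58, values that 1352 and 882 of all peaks share, and 0 of the 15 were called. A stricter adjusted p of 0.001 left 60 positive and 11 negative peaks, where 24.6% and 5.81% of all peaks were so called. By gene, 39 of the 48 members with a peak had a called one: 25 with positive ones alone, 4 with negative ones alone and 10 with both signs. The same share over all genes was not counted here. Members with a peak had a median of 4 peaks, against 2 for tested protein-coding genes with a peak. Both signs occurred in 10 of the 28 members with 2 or more called peaks (35.7%) and in 38.1% of all such genes.

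**Figure D4:**
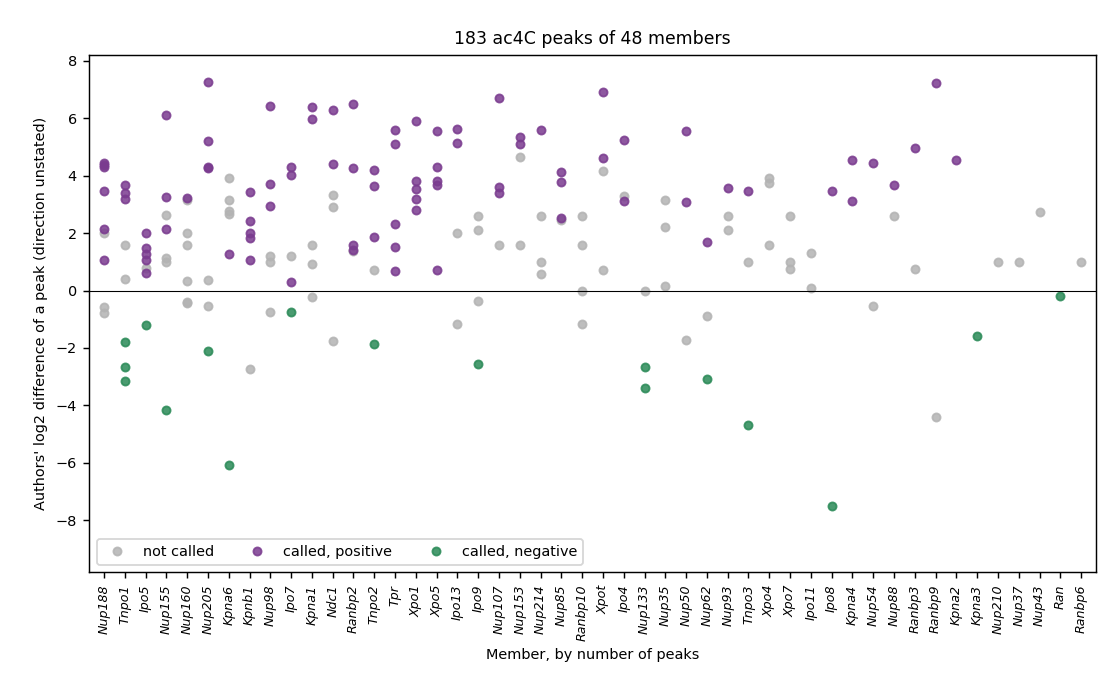
Authors' log2 difference between treatments (vertical axis, direction unstated) of each of the 183 ac4C peaks, in columns for the 48 members ordered by number of peaks. Of the peaks, 88 are called positive and 17 negative, and Tpr, Xpo1 and Xpo5 have 5 called positive peaks each.

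In 5 classes the called peaks were all positive: 9 of 12 peaks of the basket, 12 of 20 of the exportins, 6 of 11 of the cytoplasmic face, 2 of 6 of the membrane ring and 1 of 6 of Ranbp9 and Ranbp10. Over all peaks of the series 79.2% of those called were positive, and no class was tested against that share. All 5 peaks of Tpr were called, at 0.68 to 5.58 in the authors' deposited table. They included the member peaks with the lowest and the third-lowest adjusted p, chosen here after their values were seen: 1:150444467-150447733 near the gene's end (log2 difference 5.12, log10 adjusted p -135, fold enrichment 7.71) and 1:150412957-150413077 (5.58, -75.9 and 1.77). The 5 peaks of Xpo1 lay between 2.79 and 5.92 and those of Xpo5 between 0.72 and 5.55, all called, per the authors' deposited table. Nup50 had 2 of 3 peaks called and Nup153 2 of 4, up to 5.56 and 5.34. Xpot, lower in input RNA, held 2 called peaks, at 4.61 and 6.91, the latter at 10:121603291-121604471 in coding sequence. Xpo4 and Xpo7 had 3 peaks each, with 0 called.

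Importin beta family genes held 50 peaks, of which 25 were called positive and 9 negative. Kpnb1 had 6, with 5 called positive at 1.07 to 3.44 in the authors' deposited table. Its coding peak at 11:97164737-97165069 had a fold enrichment of 30.1, a log2 difference of 1.83 and the second-lowest log10 adjusted p of the members, -81.2. Tnpo1 had 8 peaks with 3 called positive and 3 negative, from -3.16 to 3.66. The positive and negative ones lay among each other, from 69.0% to 94.7% of the gene's span. Ipo5 had 7 peaks, 5 positive and 1 negative, within -1.19 and 2.00. Tnpo2 had 5, all annotated as exon with neither a coding nor a UTR class in the authors' deposited table, with 3 positive up to 4.20 and 1 negative at -1.87. Ipo4 had 2 of 3 called, at 3.12 and 5.25, and Ipo7 4 of 5, at -0.75 to 4.30. Ipo13 had 2 of 4 called positive, and Ipo9 1 of 4 called negative (-2.56). The lowest difference of all members belonged to Ipo8, -7.49 at 6:148789899-148791032 (exon, fold enrichment 14.1, log10 adjusted p -4.26), whose other peak was positive (3.45). Tnpo3 held the highest fold enrichment of the members, 62.3 in its 3′ UTR at 6:29541726-29543332 (log2 difference 3.46), and a negative coding peak at 6:29586137-29589137 (-4.68).

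Importin alpha genes had 15 peaks, 6 positive and 2 negative. Both peaks of Kpna4 were called (3.13 and 4.53), with fold enrichments of 30.6 and 19.8 in the authors' deposited table. Kpna6 had 6 peaks, of which a negative one in the 3′ UTR at 4:129644698-129644877 was the second-lowest of all members (-6.08, log10 adjusted p -15.6) and 1 in coding sequence was positive (1.28). Kpna1 had 2 of 5 called, at 5.96 and 6.39. The single peaks of Kpna2 and Kpna3, whose input levels overlapped between treatments, were called with opposite signs, 4.54 and -1.57.

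Of the scaffold genes, the 5 of the inner ring held 29 peaks and the 7 of the Y complex 26. Nup188 had the most of any member, 9, all in coding sequence, with 6 called positive at 1.06 to 4.45 in the authors' deposited table. Nup205 had 7, with 4 positive and 1 negative, among them the highest difference of all members, 7.25 at 6:35190073-35196471 (4 exonic blocks, fold enrichment 4.06, log10 adjusted p -34). Nup155 had 7, with 3 positive up to 6.11 and a negative one in the 3′ UTR at 15:8158511-8158690 (-4.17). Nup160, whose input RNA rose most among pore genes, had 7 peaks with 1 called (3.22), and Nup93 had 1 of 3 (3.57). Nup35 had 3 peaks with 0 called. In the Y complex, Nup107 had 3 of 4 called positive, the highest at 6.72 (10:117770417-117771378). Nup85 had 3 of 4, including 1 with a fold enrichment of 38.8 at 11:115569890-115578496 (2.54), and Nup98 had 3 of 6. Nup133 was the only Y-complex gene with negative called peaks, -3.39 at 8:123933390-123936874 and -2.68.

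On the cytoplasmic face, Ranbp2 had 4 of 5 peaks called positive, up to 6.49 at 10:58480550-58480730 with a fold enrichment of 35.3 in the authors' deposited table. Nup214 had 1 of 4 called (5.58) and Nup88 1 of 2 (3.69). In the channel, Nup62 had called peaks of both signs in coding sequence, 1.70 at 7:44829504-44829802 and -3.08 at 7:44829920-44830188, next to each other in the gene. Nup54 had 1 of 2 called (4.44). Ndc1 had 2 of 5 called, up to 6.29. Ranbp9 had a positive coding peak of 7.24 at 13:43419634-43421228, and Ranbp10 had 4 peaks with 0 called. Ranbp3 had 1 of 2 called (4.96). The peaks of Nup37, Nup43, Nup210, Ranbp6 (1 each) and Ipo11 (2) were not called. One more high enrichment, 37.6 in Ipo9 at 1:135391530-135391849, had no call (log2 difference 2.11).

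**Figure D5:**
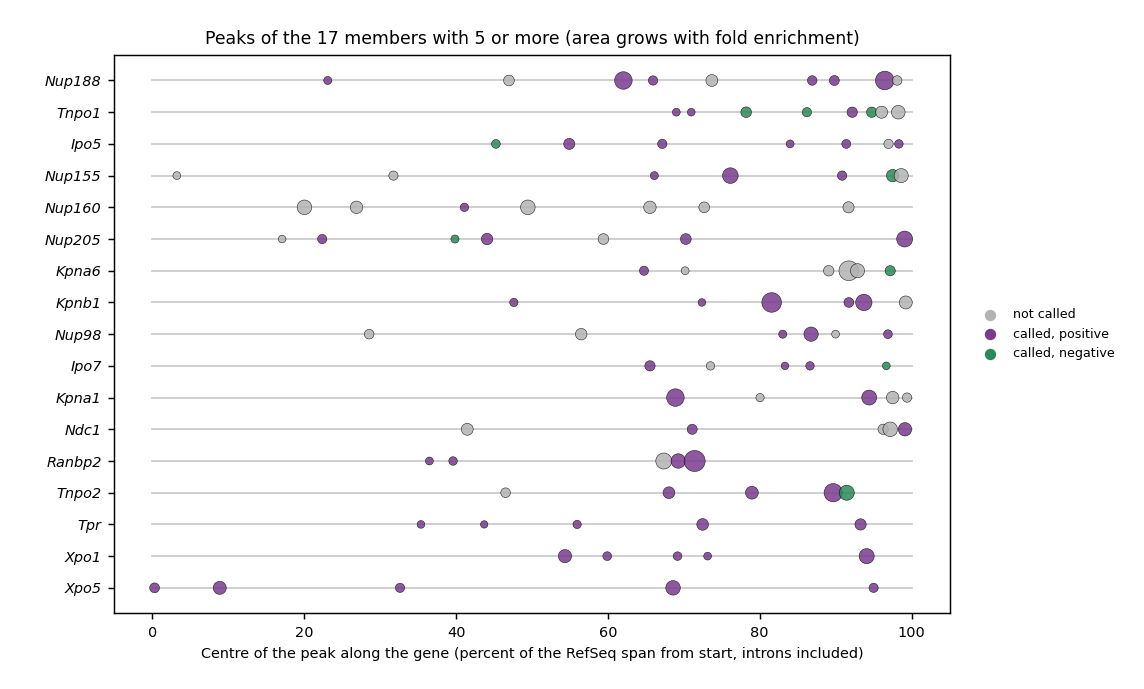
Centres of the peaks of the 17 members with 5 or more peaks along the gene (horizontal axis, percent of the RefSeq span from the start, introns included), with area growing with the authors' fold enrichment and colour giving the call. All peaks of Tpr, Xpo1 and Xpo5 are called positive, Tnpo1 shows both signs, and 6 of the 7 peaks of Nup160 are not called.

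Input changes and peak calls were set side by side. The 29 members with a peak that rose in input RNA held 129 peaks, 68 called positive and 12 negative in the authors' deposited table. The 9 that fell held 30, with 11 positive and 2 negative, and the 9 with no call in input held 23, with 9 positive and 3 negative. Positive calls thus outnumbered negative ones in each of these sets, as they did over all peaks (6959 positive and 1833 negative). Whether the sets differ was not tested.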

How the data were processed

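The authors deposited FPKM values of 14852 genes in the 6 input libraries, with their log2 fold changes and adjusted p-values. They also deposited 19049 ac4C peaks with a fold enrichment (read here as IP over input, which the header does not state), a log2 difference and log10 p scores. Those log10 scores, per the file headers p and adjusted p, were used as the authors' threshold. Tools named in the submitters' processing notes are HISAT2, HOMER, fastp and FastQC, with the build mm10. No source used here states their roles, the peak caller, the annotation, the strand setting or the authors' test. Per the labels' protocols, RNA was depleted of ribosomal RNA and libraries keep the strand.

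FPKM values were whole multiples of 1 fragment for 14851 of 14852 genes (tolerance 0.0001). limma 3.58.1 in R 4.3.3 (lmFit, eBayes with trend) was run on log2(FPKM + 1) of genes that reached 1 FPKM in 3 or more input libraries, without a replicate block. The script was tested on simulated data. Differences of peaks are the authors' own, with no value per library. Counts, shares and figures came from Python 3.11.15 with numpy 2.4.6, pandas 2.3.3 and matplotlib 3.10.9. RefSeq (GRCm38.p6) gave spans and promoters for 51 and 40 members. Peak sequences were not analysed here.

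Members and lists were chosen with earlier results of these data known. The rule for named genes gave values in every library for up to 3 members a class with the smallest adjusted p, members with a change of at least 1, and members without a call at 10 FPKM or more. It named up to 2 genes for each part of the wider list, the 5 highest and 5 lowest called peak differences, and the 3 highest enrichments; 1 gene it named is not reported here. Every other member was described by its means or counts. Alternatives were the pseudocount, filter, scaling, voom on the recovered fragments, a replicate block, leaving out each library, and stricter peak limits.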

Additional observations from a re-analysis of the deposited data

How the results depend on the processing

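Members called higher numbered 27 to 33 and lower 7 to 10 (32 and 9 as reported) under other pseudocounts, filters and scalings. These ranges include voom on recovered fragments and the authors' deposited p-values. The counts were 13 and 2 with a fold of 1.5 on the log2(FPKM + 1) scale required as well. Leaving out each library in turn gave 28 to 34 higher and 7 to 9 lower. The replicate block gave 32 higher and 8 lower members, and 33 and 13 of the wider list, where leaving out each library gave 30 to 35 and 13 to 14. Same-numbered libraries deviated with correlations of 0.097, -0.116 and 0.043, and differently numbered ones with -0.166 to 0.078. With so few libraries these values cannot show whether the samples were paired. Under the block Xpo7 missed the threshold (adjusted p = 0.0561 by limma). Peaks called negative fell from 17 to 11 at an adjusted p of 0.001. Of 643 checks over 50 members, 592 kept sign and call, 26 lost the call, 6 gained one and 19 turned sign, in 17 members. A common FPKM sum turned Ndc1 (-0.0093), Tnpo3 (-0.087), Kpna3 (-0.0041) and Ranbp3 (-0.011). Quantile normalization turned Tpr (-0.095), Ran (-0.076), Tnpo3 (-0.0027), Nup107 (-0.0033) and Ranbp3 (-0.014). Voom turned Ipo9 (5.0e-05) and Kpna2 (0.00075). Leaving out each library in turn gave both signs for Ipo9 (-0.028 to 0.020), Ndc1 (-0.022 to 0.187), Tnpo3 (-0.020 to 0.019), Nup43 (-0.147 to 0.035) and Kpna2 (-0.034 to 0.028). The cause was not tested. Of the members whose sign turned, Ran and Tpr had a call as reported. With 3 libraries a group and FPKM below 1, changes such as that of Nup37, with 13 fragments in its lowest library, are the least precise, and peaks carry no spread between libraries.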
